A study of Mus musculus with 4 samples.

Results

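The zinc-dependent histone deacetylases were described in heart RNA of mice that carry a Sirt1 transgene and of wild type mice. The family here is 10 genes, Hdac1 to Hdac9 and Hdac11, out of 18193 genes with a probe set of 1 symbol. They were chosen by name: every probe set whose annotation gives exactly 1 of these symbols was taken, which gave 17 probe sets, and the rule uses no measured value. The study hybridised total RNA from 4 hearts to Affymetrix arrays, on which each probe set reports the combined signal of several short probes. The arrays are named as in the labels: Tg-Sirt1-1 and Tg-Sirt1-2 from transgenic mice, and NTg-1 and NTg-2 from wild type mice. The sources used here give no strain, age, sex or line, and do not say which promoter drives the transgene. They name no other allele, and no agent apart from the pentobarbital used to kill all animals.

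Histone deacetylases remove acetyl groups from lysines of histones and of many other proteins, and fall into classes by sequence. Class I enzymes (Hdac1, Hdac2, Hdac3 and Hdac8) are largely nuclear, and the first 3 of them work as the catalytic subunits of corepressor complexes. Class IIa members (Hdac4, Hdac5, Hdac7 and Hdac9) have weak activity of their own, bind MEF2 transcription factors and leave the nucleus when kinases phosphorylate them. In the mouse heart they are known as brakes on the growth response to load. Class IIb Hdac6 is a cytoplasmic enzyme that acts on tubulin, and Hdac11 alone makes up class IV. Sirt1 belongs to class III, the sirtuins, which use NAD in place of zinc and are unrelated to the 10 genes by sequence.

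The arrays labelled Tg-Sirt1-1 and NTg-1 gave nearly the same values throughout, and this bears on every comparison that follows. The SD of their difference over 45037 probe sets was 0.0759 log2 units, against 0.342 to 0.405 in the other 5 pairs of arrays. Sirt1 itself read 7.16 on Tg-Sirt1-1 and 7.93 on Tg-Sirt1-2, against 7.30 on NTg-1 and 7.17 on NTg-2, so only 1 of the arrays labelled Tg-Sirt1 stood above the NTg arrays. Whether that probe set detects the transgene is not known here. Cardiomyocyte markers were bright on every array: the 8 of 8 measured averaged 13.75 and 13.63 log2 on the Tg-Sirt1 arrays and 13.76 and 13.68 on the NTg arrays. The signal of the 3' end over the 5' end of the Actb control, a sign of RNA integrity, was largest on Tg-Sirt1-2, at 1.92 log2 units there and 1.25 on Tg-Sirt1-1, against 1.22 on NTg-1 and 1.44 on NTg-2. The other cell types that heart tissue holds were followed by 10 further marker lists, and over all 11 lists 0 markers were called and the median differences ran from -0.77 (neutrophil) to 0.195 (fibroblast). Both of these rested on NTg-2, and without it they changed sign, to 0.03 for the neutrophil and -0.165 for the fibroblast markers. In heart tissue, fewer cells of a type and less RNA per cell cannot be told apart.

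No histone deacetylase gene passed the test between the labels. At a limma adjusted p under 0.05 the family had 0 of 17 probe sets (each had an adjusted p of 0.996), and 0% of all 45037 were called. At an unadjusted p under 0.05 in limma the family again had 0 of 17, against 0.0622% of all probe sets. The mean of the Tg-Sirt1 arrays was the higher at 7 of 17 and the lower at 10, beside 45.6% higher and 53.1% lower over all probe sets. Without Tg-Sirt1-2 the count of higher means was 13 of 17, and without NTg-2 it was 5. The median difference, Tg-Sirt1 minus NTg in log2 units, was -0.045 in the family and -0.015 over all probe sets. Single differences ran from -0.345 to 0.315, and all 17 of their 95% intervals held 0. The widest interval spanned 1.54 log2 units and the narrowest 0.68, so a moderate difference would not have been detectable. These intervals and p-values treat the arrays as separate samples, which the near-identical arrays under opposite labels put in doubt. With such arrays a missed threshold is no sign of likeness between the hearts. For 2 arrays against 2, the smallest two-sided p of an exact permutation test is 0.333.

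The largest differences between Tg-Sirt1-2 and Tg-Sirt1-1 were those of Hdac7 (-0.71), Hdac5 (-0.59) and Hdac2 (0.43). The RefSeq start-site windows of these 3 genes (GRCm38.p6, from 250 bases before to 50 after the annotated start, each written 5' to 3' on the strand of its gene) are shown for that reason. That of Hdac5 lies at chr11:102230123-102230422 on the minus strand. The first of 4 listed for Hdac7 lies at chr15:97831446-97831745, minus strand, and which of the 4 starts these hearts used was not determined. That of Hdac2 lies at chr10:36974294-36974593 on the plus strand. Capitals mark matches, on either strand, to GGGCGG (the GC box), CACGTG (an E-box), CCAAT (the CCAAT box, which reads ATTGG on the other strand) or TATAAA (the TATA box).
Hdac5: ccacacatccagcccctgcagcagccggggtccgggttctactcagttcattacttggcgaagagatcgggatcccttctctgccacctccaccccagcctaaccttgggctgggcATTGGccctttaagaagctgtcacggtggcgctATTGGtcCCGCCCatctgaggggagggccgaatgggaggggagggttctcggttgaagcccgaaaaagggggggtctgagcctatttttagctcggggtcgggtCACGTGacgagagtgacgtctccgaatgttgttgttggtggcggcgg
Hdac7: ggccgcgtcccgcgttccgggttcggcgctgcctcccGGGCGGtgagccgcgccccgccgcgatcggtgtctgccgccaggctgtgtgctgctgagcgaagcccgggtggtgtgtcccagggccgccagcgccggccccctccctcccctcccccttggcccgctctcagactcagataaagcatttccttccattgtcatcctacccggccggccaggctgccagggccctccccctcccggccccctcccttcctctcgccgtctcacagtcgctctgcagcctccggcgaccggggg
Hdac2: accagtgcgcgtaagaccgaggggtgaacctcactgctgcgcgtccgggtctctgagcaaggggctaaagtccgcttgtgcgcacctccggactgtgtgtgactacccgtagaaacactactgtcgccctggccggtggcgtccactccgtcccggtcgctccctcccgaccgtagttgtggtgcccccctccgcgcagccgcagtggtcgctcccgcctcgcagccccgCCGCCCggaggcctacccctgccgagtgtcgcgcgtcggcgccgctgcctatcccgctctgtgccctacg

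The Hdac5 window held 1 E-box, 1 GC box and 2 CCAAT boxes, with a GC content of 60.7%. The window shown for Hdac7 and that of Hdac2 held 1 GC box each and none of the other motifs, at 73.7% and 69.7% GC. The further windows of Hdac7 held none of these motifs, at 54.7%, 65.7% and 60.7% GC. Of all 32851 windows in the table, 35.7% held the GC box, 7.15% the E-box, 37.4% the CCAAT box and 13.6% the TATA box, and the median GC content was 52.7%. RefSeq windows were matched for 8 of the 10 genes. A window with the GC box was found for 6 of these 8, one with the CCAAT box for 5, with the TATA box for 2 (Hdac8 and Hdac9) and with the E-box for Hdac5 alone. These count genes with at least 1 such window, whereas the shares above are of single windows. A match describes letters and is no evidence of a bound factor.

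**Figure D1:**
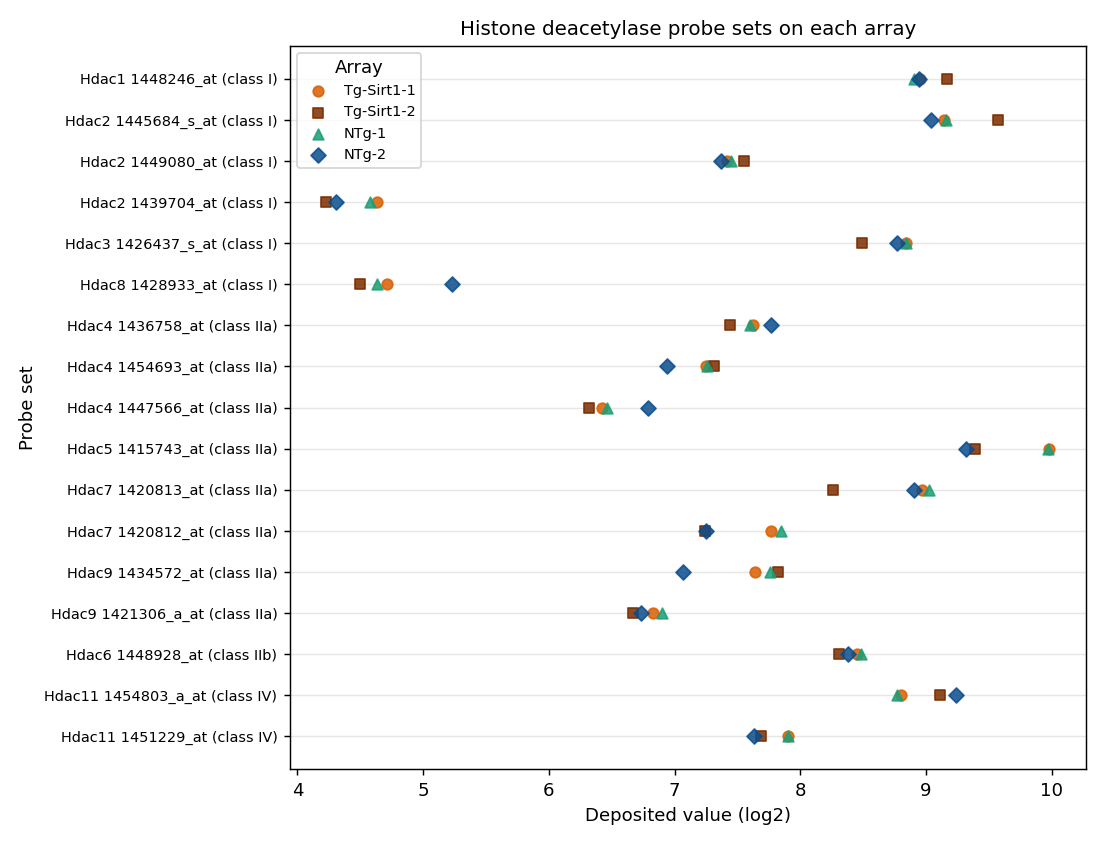
Deposited log2 value (horizontal axis) of each of the 17 probe sets (rows, by class) on the 4 arrays, 1 marker per array. Tg-Sirt1-1 and NTg-1 lie on or beside each other in every row, within 0.12 log2 units, while Tg-Sirt1-2 or NTg-2 takes at least 1 end of all 17 rows. Given how close Tg-Sirt1-1 and NTg-1 are, the ends could hardly fall otherwise.

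Among class I genes, Hdac1 and the bright probe set of Hdac2 stood highest on Tg-Sirt1-2. These closely related enzymes act in the same Sin3, NuRD and CoREST complexes and can replace each other in the mouse heart. Hdac1, measured by 1448246_at, read 8.95 on Tg-Sirt1-1 and 9.17 on Tg-Sirt1-2, against 8.90 on NTg-1 and 8.94 on NTg-2. Both Tg-Sirt1 values were above both NTg values, but Tg-Sirt1-1 cleared NTg-2 by only 0.01. The difference of the means was 0.14 ± 0.14 (SE; limma adjusted p = 0.996), and without Tg-Sirt1-2 it was 0.03. Hdac1 was the 1 probe set of 17 wholly above, where 9.59% of all probe sets had both Tg-Sirt1 arrays above both NTg arrays.

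Hdac2, known in mice to favour the hypertrophic response, was measured 3 times. Its brightest probe set, 1445684_s_at, read 9.14 on Tg-Sirt1-1 and 9.57 on Tg-Sirt1-2, against 9.16 on NTg-1 and 9.04 on NTg-2. One Tg-Sirt1 array thus stood above the rest and the other between the NTg arrays. The means were 9.36 ± 0.30 in Tg-Sirt1 and 9.10 ± 0.08 in NTg (SD, n = 2 each), a difference of 0.255 with a 95% interval from -0.22 to 0.73. The suffix _s_at marks a probe set whose probes can match more than 1 transcript. The dimmer 1449080_at had the same order at a smaller scale, with 7.42 and 7.55 on the Tg-Sirt1 arrays against 7.45 and 7.37 on the NTg arrays. The third, 1439704_at, went against both: it read 4.63 and 4.23 on the Tg-Sirt1 arrays and 4.58 and 4.31 on the NTg arrays, below the median of each array, with its lowest value on Tg-Sirt1-2.

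Hdac3, the catalytic subunit of the NCoR and SMRT corepressor complexes, whose loss from the mouse heart disturbs lipid metabolism, stood lowest on Tg-Sirt1-2. Its only probe set, 1426437_s_at, has the suffix explained for Hdac2, so its probes can match further transcripts. It read 8.84 on Tg-Sirt1-1 and 8.49 on Tg-Sirt1-2, against 8.84 on NTg-1 and 8.77 on NTg-2. The other 3 arrays lay within 0.07 of each other and Tg-Sirt1-2 below them, so the difference of -0.14 ± 0.17 (SE) became 0.035 without that array. On Tg-Sirt1-2 Hdac3 was 0.35 below Tg-Sirt1-1 while the bright probe set of Hdac2 was 0.43 above it. Hdac8, an X-linked class I enzyme that acts outside the large corepressor complexes and deacetylates the cohesin subunit Smc3, was dim. It read 4.71 and 4.50 on the Tg-Sirt1 arrays, against 4.63 and 5.23 on the NTg arrays, below the median of every array. Its NTg-2 value was the highest, and the difference was -0.325 (95% interval -0.93 to 0.28), or -0.025 without NTg-2.

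Class IIa held the largest array-to-array differences of the family, and most of them were lower values on Tg-Sirt1-2, NTg-2 or both. Hdac5, whose loss makes mouse hearts overgrow under stress, read 9.98 on Tg-Sirt1-1 and 9.39 on Tg-Sirt1-2, against 9.97 on NTg-1 and 9.32 on NTg-2 (1415743_at). The replicate-1 arrays were high and the replicate-2 arrays low under both labels, by 0.59 in Tg-Sirt1 and 0.65 in NTg, so that the labels overlapped almost completely. The means were 9.69 ± 0.42 in Tg-Sirt1 and 9.65 ± 0.46 in NTg (SD, n = 2 each). The difference of 0.04 ± 0.30 (SE) was -0.285 without NTg-2 and 0.335 without Tg-Sirt1-2.

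Hdac7, which in the mouse maintains the integrity of developing blood vessels through its action in endothelium, had a pair of probe sets. The dimmer, 1420812_at, was high on both replicate-1 arrays and low on both replicate-2 arrays, as Hdac5 was, with 7.77 and 7.24 on the Tg-Sirt1 arrays against 7.85 and 7.25 on the NTg arrays. In the brighter, 1420813_at, only Tg-Sirt1-2 was low: it read 8.26, and Tg-Sirt1-1 read 8.97, against 9.02 on NTg-1 and 8.90 on NTg-2. That probe set had the most negative difference between labels of the family, -0.345 ± 0.26 (SE), with a 95% interval from -1.004 to 0.314, and it was 0.01 without Tg-Sirt1-2. Endothelial markers were lower on both replicate-2 arrays on average, and lowest on NTg-2, at 9.38 on Tg-Sirt1-1 and 9.10 on Tg-Sirt1-2, against 9.39 on NTg-1 and 9.01 on NTg-2, with all 8 of 8 measured and above the median of every array. Of these, Pecam1 read 8.66 and 7.79 on the Tg-Sirt1 arrays against 8.62 and 8.07 on the NTg arrays. In the same array order Kdr read 11.18 and 10.36 against 11.17 and 10.68, and Egfl7 9.81 and 9.34 against 9.80 and 9.39. Tie1 read 8.33 and 8.04 against 8.38 and 8.09, and Emcn 9.36 and 9.27 against 9.35 and 8.69. All of these were lower on each replicate-2 array than on the replicate-1 array of its label. The values of Cdh5 lay within 0.06 of each other. Tek went the other way on the array where the brighter Hdac7 probe set was low, with 9.78 on Tg-Sirt1-1 and 10.09 on Tg-Sirt1-2, against 9.82 on NTg-1 and 9.34 on NTg-2, while Vwf read 8.95 and 8.99 on the Tg-Sirt1 arrays against 8.99 and 8.81 on the NTg arrays. Fibroblast markers averaged 11.07 and 10.66 on the Tg-Sirt1 arrays against 11.07 and 10.15 on the NTg arrays. The part of these markers in the Hdac5 and Hdac7 values was not tested.

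Hdac9, which like Hdac5 restrains stress-induced growth of the mouse heart, had the largest positive difference between labels. Its brighter probe set, 1434572_at, read 7.64 on Tg-Sirt1-1 and 7.82 on Tg-Sirt1-2, against 7.76 on NTg-1 and 7.07 on NTg-2. Only NTg-2 was low, and the other arrays overlapped. The difference of 0.315 ± 0.26 (SE; 95% interval -0.34 to 0.97) was -0.03 without NTg-2. The other probe set, 1421306_a_at, did not show the low value: it read 6.83 and 6.67 on the Tg-Sirt1 arrays and 6.90 and 6.73 on the NTg arrays, and its difference was -0.065. Hdac9 is known to give a short form, MITR, that lacks the catalytic domain. Which forms each probe set matches was not determined here, beyond the suffix _a_at, which marks a match to several transcripts of 1 gene.

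Hdac4, best known in the mouse for restraining cartilage growth, had 3 probe sets that did not share an order. Probe set 1436758_at read 7.62 and 7.44 on the Tg-Sirt1 arrays, against 7.60 and 7.77 on the NTg arrays. The dimmest, 1447566_at, read 6.42 and 6.32 on the Tg-Sirt1 arrays, against 6.46 and 6.79 on the NTg arrays. In both of these NTg-2 was highest and Tg-Sirt1-2 lowest. The second was the 1 probe set of the family with both Tg-Sirt1 arrays below both NTg arrays, where 11.4% of all probe sets were, and it had the smallest unadjusted p of the family (limma, 0.181; difference -0.255 ± 0.16, SE). In 1454693_at the order was turned round, with 7.25 and 7.31 on the Tg-Sirt1 arrays against 7.26 and 6.94 on the NTg arrays, and a difference of 0.18 ± 0.16 (SE).

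Hdac6, the X-linked tubulin deacetylase of class IIb, varied least of the family. It read 8.45 and 8.31 on the Tg-Sirt1 arrays, against 8.48 and 8.38 on the NTg arrays (1448928_at), a range of 0.17 that 82.7% of all probe sets reached or passed. Its difference was -0.05 ± 0.14 (SE). Hdac10, the other class IIb gene, is not among the 10, and its probe sets had differences of -0.145 and -0.03 (limma adjusted p = 0.996 for both).

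Hdac11, a class IV enzyme that removes long fatty acyl groups from lysine, gave opposite orders in its pair of probe sets. The brighter, 1454803_a_at, read 8.80 and 9.11 on the Tg-Sirt1 arrays and 8.77 and 9.24 on the NTg arrays. The other, 1451229_at, read 7.90 and 7.69 on the Tg-Sirt1 arrays and 7.90 and 7.63 on the NTg arrays. Replicate 2 was thus the higher under both labels in the first and the lower under both in the second. Their differences between labels were -0.05 ± 0.22 and 0.03 ± 0.16 (SE). Of the 5 genes with several probe sets, only Hdac7 had the same sign in all of them, while Hdac2, Hdac4, Hdac9 and Hdac11 had both signs.

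**Figure D2:**
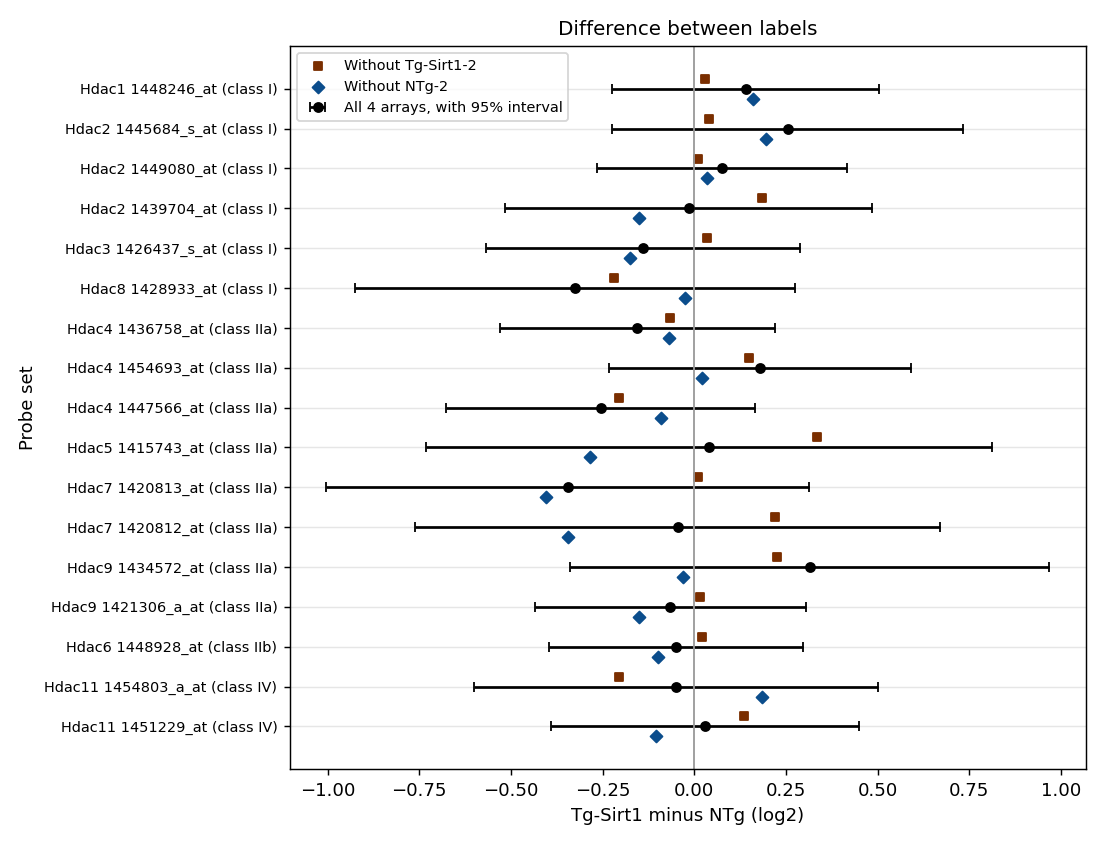
Tg-Sirt1 mean minus NTg mean in log2 units (horizontal axis) for the 17 probe sets, with the 95% interval of the limma fit on 4 arrays as bars. Squares leave out Tg-Sirt1-2 and diamonds leave out NTg-2. Every bar crosses 0, and the Hdac5 difference is -0.285 without NTg-2 and 0.335 without Tg-Sirt1-2.

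Arrays of 1 label differed by up to 0.71 log2 units in Tg-Sirt1 and 0.69 in NTg. On Tg-Sirt1-2, 3 of 17 probe sets were lower than on Tg-Sirt1-1 by at least 0.5 log2 units (1.41-fold), namely Hdac5 and both of Hdac7, where 6.44% of all probe sets were, and 0 were higher by as much, where 3.42% were. Between the NTg arrays, 3 of 17 were lower on NTg-2 than on NTg-1 by that step (Hdac5, the dimmer of Hdac7 and the brighter of Hdac9; 8.23% of all), and 1 of 17 was higher (Hdac8; 4.17% of all). The step was passed downwards under both labels by 2 of 17 and by 2.37% of all probe sets. These are differences between single arrays with no test, and since Tg-Sirt1-1 and NTg-1 are near-identical, both are set against almost the same array.

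In direction, 11 of 17 probe sets were lower on Tg-Sirt1-2 than on Tg-Sirt1-1, with a median of -0.16, beside 45.4% and a median of 0.02 over all probe sets. Likewise 12 of 17 were lower on NTg-2 than on NTg-1, with a median of -0.12, beside 44.7% and a median of 0.03. With 1 probe set per gene, 6 of 10 genes were lower in each comparison. Their medians were -0.16 in Tg-Sirt1 and -0.085 in NTg, beside 0.04 and -0.01 over all represented genes. The class IIa probe sets had 6 of 8 lower in each of these comparisons. Within the near-identical pair the differences of the family ran from -0.12 to 0.08, and they were smaller than the difference between either label's replicates at 16 of 17 probe sets, with Hdac1 as the exception, beside 67.6% of all probe sets. The Gapdh control had the same ranking of arrays as that of Actb, with a 3' over 5' signal of 0.19 on Tg-Sirt1-1 and 1.34 on Tg-Sirt1-2, against 0.18 on NTg-1 and 0.69 on NTg-2. The part of these ratios in the Hdac5 and Hdac7 values was not tested.

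**Figure D3:**
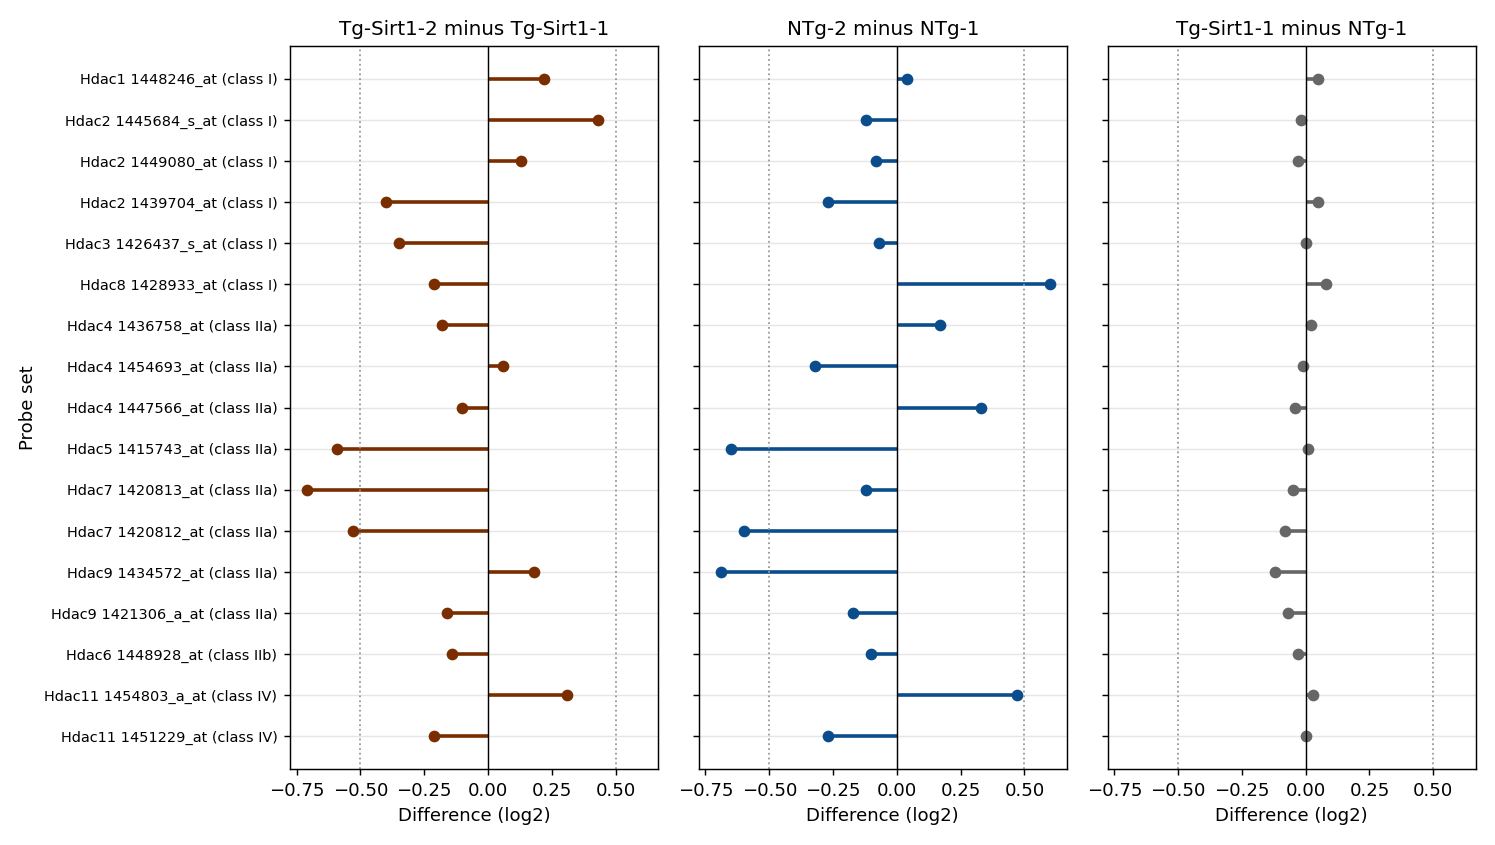
Differences in log2 units (horizontal axes) between the arrays of the Tg-Sirt1 label, between those of the NTg label, and between the near-identical arrays, for the 17 probe sets. Dotted lines mark 0.5 log2 units. Hdac5 and the dimmer Hdac7 probe set pass the lower line in both of the first panels, and no value of the last panel exceeds 0.12 in size.

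The spread over the 4 arrays ranged from 0.17 for Hdac6 to 0.76 for the brighter probe set of Hdac7, that is 1.13-fold to 1.69-fold. The median was 0.40 in the family, 0.54 in class IIa and 0.375 in class I, against 0.33 over all probe sets. A spread as large as that of Hdac7 was reached by 9.28% of all probe sets, as that of Hdac9 (0.75) by 9.59%, that of Hdac8 (0.73) by 10.4% and that of Hdac5 (0.66) by 13.6%. At the low end, 80.7% of all probe sets spread at least as much as the middle probe set of Hdac2 (0.18). Of the 17, 15 read above the array median on all 4 arrays and 2, those of Hdac8 and the dimmest of Hdac2, below it on all 4. The spread of the family was thus set against all probe sets without a match for brightness. Probe sets of different genes bind their targets unequally, so levels were not ranked between genes.

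**Figure D4:**
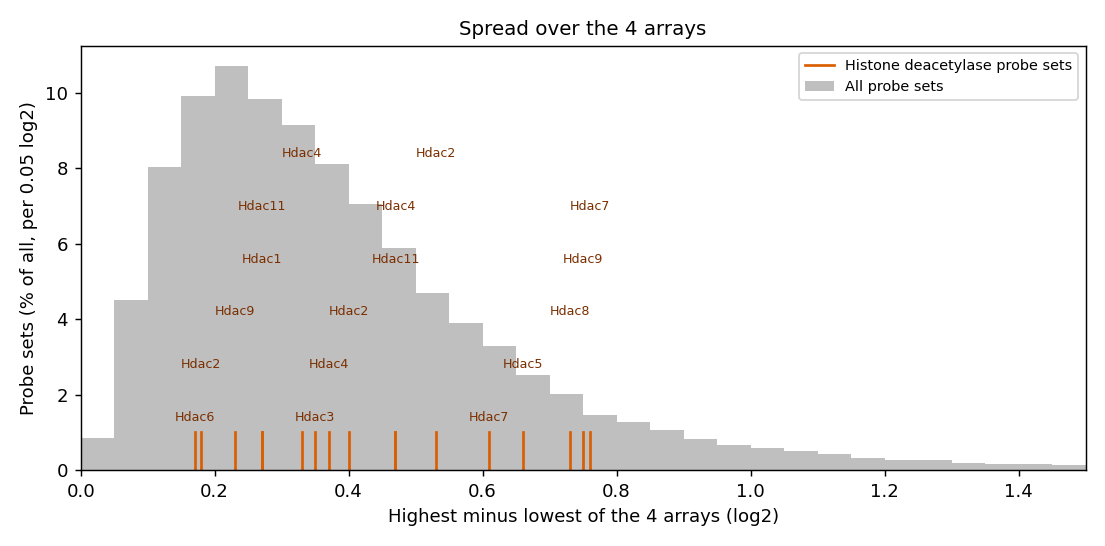
Histogram of the highest minus the lowest of the 4 arrays in log2 units (horizontal axis) for all 45037 probe sets, as percent per bin of 0.05. Ticks mark the 17 histone deacetylase probe sets, which lie between 0.17 and 0.76 under the body of the histogram, and the 1.25% of probe sets at 1.5 or more are not drawn.

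Of the genes that act with histone deacetylases, 0 passed a limma adjusted p of 0.05 in each list, with 1 probe set per gene. For scale, 9653 of 18193 genes had a higher and 8324 a lower Tg-Sirt1 mean, with a median of 0.015. Subunits of the class I corepressor complexes had 20 of 35 measured members higher and 15 lower, with a median of 0.04. Their members of smallest p were the Sin3 subunit Arid4a (0.55), the NCoR subunit Tbl1x (0.475) and the CoREST family member Rcor2 (-0.395). MEF2 factors, kinases, phosphoprotein adaptors and export factors that act on class IIa enzymes had 15 of 24 higher and a median of 0.07. Smallest in p were Prkd1, a kinase that drives class IIa export (0.435), the nuclear export receptor Xpo1 (0.53) and the calcium-regulated kinase Camk2d (0.40). Each was highest on Tg-Sirt1-2 and lowest on NTg-2. With Tg-Sirt1-1 and NTg-1 near-identical, a choice by smallest p favours genes with Tg-Sirt1-2 and NTg-2 at opposite ends. The rule favours either direction: among the corepressor subunits chosen by it, Arid4a and Tbl1x had this order and Rcor2 the reverse. Whether the shared order is a trait of this list was not tested.

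Lysine acetyltransferases, which oppose the deacetylases, had 8 of 13 higher, 4 lower and a median of 0.105, with Ncoa1 at 0.24, Ep300, the gene of the coactivator p300, at 0.235 and the tubulin acetyltransferase Atat1 at -0.19. Of the class III sirtuins 5 of 7 were higher (median 0.09), led by p in Sirt6 (-0.17), Sirt1 (0.31) and Sirt5 (0.185). Genes that MEF2 and class IIa enzymes are known to govern in the stressed heart had 6 of 12 higher and 6 lower (median -0.02). The 3 of smallest p, Myh7, Acta1 and Nppb, were chosen by that rule with their values already known, and each was highest on NTg-2. Here too, a choice by smallest p favours genes with NTg-2 at an end, but it sets neither the direction nor the size. Myh7, the slow myosin heavy chain, read 11.64 and 10.89 on the Tg-Sirt1 arrays against 11.65 and 13.27 on the NTg arrays. In the same array order Acta1 read 7.23 and 6.46 against 7.37 and 12.17, and Nppb 11.76 and 11.55 against 11.76 and 12.46. The range of Acta1, 5.71, was the largest of all 45037 probe sets. The cause of the high NTg-2 values was not tested. Without NTg-2 the median of this list was -0.09, and the medians of 3 of the other lists changed sign: that of the corepressor subunits was -0.02, that of the class IIa partners -0.02 and that of the sirtuins -0.035. The median of the acetyltransferases was then 0.02.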

How the data were processed

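The deposited values were log2 expression, 1 value per probe set and array. The authors made these log2 values with RMA in Affymetrix Expression Console, per the submitters' processing notes, which name no version. RMA quantile normalizes arrays, so a change in total RNA is removed, and it damps differences of dim probe sets. Detection calls and scan dates are not known, since no scanner files were used.

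The table holds 45101 probe sets, 64 of them controls, which were not tested. Names came from the platform annotation, in which 34945 probe sets had 1 symbol. The labels were compared in limma 3.58.1 (R 4.3.3; lmFit and eBayes, two-sided) over all 45037 probe sets with Benjamini-Hochberg adjustment, and only the 17 of the family are reported. The fit had 2 residual and 3.10 prior degrees of freedom. Where 1 probe set stands for a gene, it is that with the highest mean. The rule for named genes was every probe set of the 10 members, and from each list of partner genes the 3 of smallest unadjusted p. The endothelial markers and Hdac10 were also named, outside this rule. Members, lists and tests were chosen with earlier results of these data known, and the step of 0.5 log2 units after values were seen. Each SD is over 2 arrays. The design text describes separate mice, but Tg-Sirt1-1 and NTg-1 differed less than any other pair. The number of arrays limits the precision.

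Alternatives counted the near-identical arrays once, used a replicate block, left out each array, renormalized, centred or offset the values, left out dim probe sets, changed the prior or averaged the probe sets of a gene.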

Additional observations from a re-analysis of the deposited data

How the results depend on the processing

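In every alternative fitted in limma with no array left out or merged, 0 probe sets of the family and 0 of all probe sets passed an adjusted p of 0.05. Averaging the probe sets of a gene gave differences only and was not fitted. The direction of the family did depend on which arrays were counted. With the near-identical arrays averaged and counted once as Tg-Sirt1, 11 of 17 probe sets had the higher Tg-Sirt1 mean and the median difference was 0.1075. With that average counted once as NTg, 6 of 17 did, the median was -0.1275, Hdac5 had a difference of -0.2575 and Hdac11 one of 0.0975. Counted once as Tg-Sirt1, Hdac6 had 0.0075, and after a second quantile normalization Hdac5 had -0.055. Leaving out each array in turn gave 5 to 13 probe sets with the higher Tg-Sirt1 mean and medians from -0.145 to 0.115. The same fits gave ranges of -0.315 to 0.035 for Hdac3, -0.285 to 0.365 for Hdac5, -0.12 to 0.02 for Hdac6, -0.70 to 0.01 for Hdac7, -0.03 to 0.66 for Hdac9 and -0.285 to 0.185 for Hdac11. Apart from the second normalization these fits lost 1 array or merged 2, and the cause was not tested further. Hdac1, Hdac2, Hdac4 and Hdac8 kept their sign in each alternative that could be run for their brightest probe set; the filter on dim probe sets left Hdac8 out. A replicate block cannot change these differences, since each label has 1 array of each number. The median therefore stayed at -0.045, and 0 probe sets were called. The numbers 1 and 2 pair no animals in the labels. Deviations of same-numbered arrays from their label means had r = 0.293 across probe sets. Since Tg-Sirt1-1 and NTg-1 are near-identical, a positive r arises from that alone, so the value cannot show a pairing. Of 124 values of single genes under alternatives, 12 changed sign. The 124 include the replicate block, the changed prior and the filter on dim probe sets. None of these can change a difference, so the share that changed sign understates how far signs depend on the arrays.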
